A study of Mus musculus with 8 samples.

Results

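The Hippo pathway genes described here were 10 symbols, chosen by name: the coactivators *Yap1* and *Wwtr1*, the DNA-binding partners *Tead1*, *Tead2* and *Tead3*, the kinase *Lats2*, and the target genes *Ctgf*, *Cyr61*, *Amotl2* and *Ankrd1*. They were found through the NCBIM37 annotation and matched 11 of the 36536 gene rows, because *Tead1* was listed under 2 gene identifiers. RNA-seq counts came from cells sorted out of the cochleas of mice at postnatal day 1 (P1) and postnatal day 6 (P6). All mice carried the same transgene (strain B6;FVB-Tg(Lfng-EGFP)HM340Gsat/Mmucd), a bacterial artificial chromosome in which *Lfng* regulatory sequence drives EGFP, and no group was treated or cultured. The 4 groups were P1 GFP+, P1 GFP-, P6 GFP+ and P6 GFP- cells, with 2 libraries each, and each library pooled cells from many cochleas. The GFP+ fraction held the brightest cells, a set that in this strain covers Deiters' cells, outer pillar cells, inner phalangeal cells and border cells and leaves out inner pillar cells. The GFP- fraction was a mixture of unlabelled cells, cells of low GFP were not collected, and at P6 part of the lateral wall was still attached to the dissected tissue.

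In the Hippo pathway, a kinase cascade that ends in LATS1 and LATS2 phosphorylates the coactivators YAP (Yap1) and TAZ (Wwtr1) and keeps them out of the nucleus. When the cascade is off, YAP and TAZ enter the nucleus and bind TEAD proteins on DNA, and target genes such as *Ctgf* and *Cyr61* are transcribed. The pathway is known for limiting organ size, and in the inner ear YAP and TEAD have been linked to proliferation of sensory progenitors. Phosphorylation and nuclear entry are not seen by RNA-seq, so the values below are RNA levels only.

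The libraries held between 17769024 and 67695039 counts on genes, and levels are given as CPM, the counts scaled by the total of each library. All 8 supporting cell markers were higher in GFP+ than in GFP- cells at both ages, and their summed level was 7283 CPM in both P1 GFP+ libraries, 5995 and 4605 CPM in the P6 GFP+ libraries, and 260 to 387 CPM in the 4 GFP- libraries. Summed mesenchyme markers ranged from 458 to 532 CPM in P1 GFP+, 1780 to 3576 CPM in P6 GFP+, 14006 to 15994 CPM in P1 GFP- and 18287 to 19065 CPM in P6 GFP- libraries. None of the 8 mesenchyme markers was at 0 in any library. Of 8 hair cell markers 5 were called higher in GFP+ cells at each age by the quasi-likelihood test used for the members, with sums of 704 and 808 CPM in P1 GFP+, 472 and 438 CPM in P1 GFP-, 438 and 515 CPM in P6 GFP+, and 348 and 387 CPM in P6 GFP- libraries, and 1 of them was at 0 in P6 GFP- replicate 2.

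The P6 GFP+ libraries stood apart from each other in 2 ways that touch the genes below. Replicate 2 held more RNA of genes typical of GFP- cells: 751 genes called lower by more than 16-fold in P1 GFP+ than in P1 GFP- cells summed to 14111 CPM there and to 4452 CPM in replicate 1. Replicate 1 was low in long genes. Over 5 bins of exon length, the median difference of replicate 2 minus replicate 1 in log2(CPM + 1) went from -0.28 in the shortest genes to 0.39 in the longest, whereas it stayed between -0.045 and 0.063 in every bin of the other 3 groups. Of the members, the longest *Tead1* row differed most, by 2.02, followed by *Lats2* at 0.98 and *Amotl2* at 0.55, while *Yap1*, which is nearly as long, differed by 0.072.

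**Figure D1:**
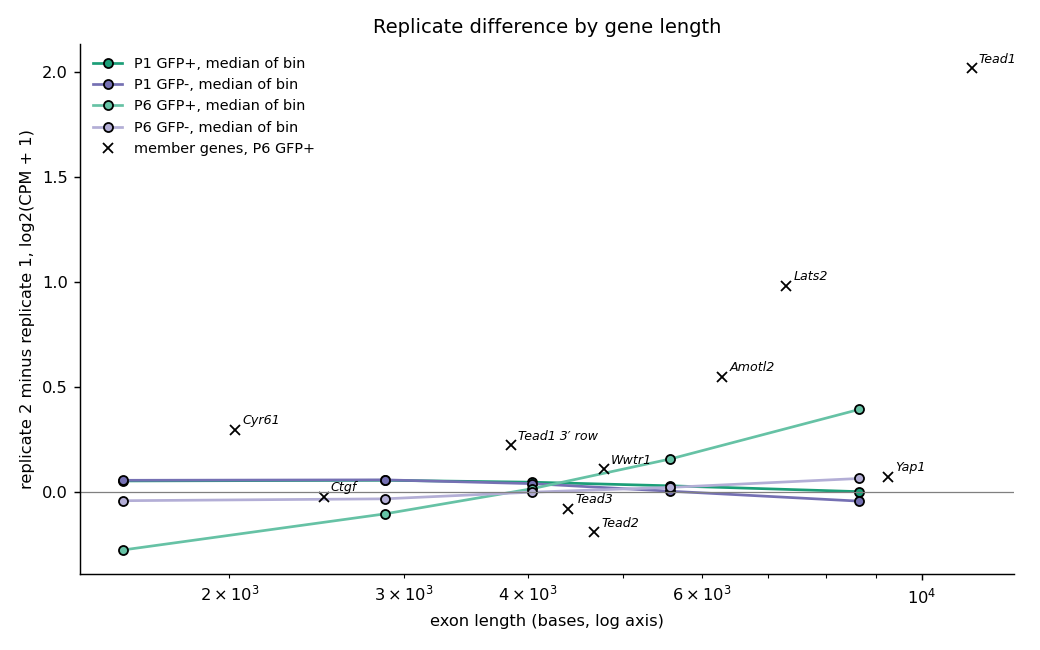
The difference between the replicates (replicate 2 minus replicate 1, log2(CPM + 1)) is plotted against exon length in bases on a log axis, with a line through the medians of 5 length bins for each group and a cross for each member in P6 GFP+ cells (Ankrd1 is left out). The P6 GFP+ line climbs from -0.28 to 0.39 while the other lines stay near 0, and Tead1 and Lats2 lie above it.

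The coactivators came first. *Yap1* (ENSMUSG00000053110, NCBIM37 chromosome 9, 7931999 to 8004596, minus strand) was at 211 and 222 CPM in the P1 GFP+ libraries, 182 and 185 CPM in P1 GFP-, 147 and 155 CPM in P6 GFP+, and 166 and 160 CPM in P6 GFP-. In CPM the order of the groups was therefore P1 GFP+, P1 GFP-, P6 GFP- and P6 GFP+, with no overlap between groups. The order of the GFP- groups depended on the scaling. With the TMM factors used in the tests below, their log2 fold change of P6 over P1 was 0.020 ± 0.10. *Wwtr1* (ENSMUSG00000027803, chromosome 3, 57259571 to 57379832, minus strand), which encodes TAZ, was at 74.0 and 72.9 CPM in P1 GFP+, 238 and 193 CPM in P1 GFP-, 128 and 138 CPM in P6 GFP+, and 172 and 165 CPM in P6 GFP-. It was lowest in P1 GFP+ cells, and P6 GFP+ cells lay between those and both GFP- groups.

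The balance between the 2 coactivators can be read within each library, where no scaling between libraries enters. Per kilobase of exon (RPKM), *Yap1* was 1.47 and 1.57 times the level of *Wwtr1* in the P1 GFP+ libraries. In the other 6 libraries *Yap1* was the lower of the pair, at 0.395 and 0.494 times *Wwtr1* in P1 GFP-, 0.591 and 0.577 times in P6 GFP+, and 0.496 and 0.501 times in P6 GFP-. So *Yap1* RNA exceeded *Wwtr1* RNA per kilobase in P1 GFP+ cells and not in the other 3 groups. Which gene is the higher depends on the exon lengths used, 9257 bases for *Yap1* and 4779 for *Wwtr1* with all annotated exons merged. In CPM *Yap1* was also above *Wwtr1* in both P6 GFP+ libraries. The difference of the ratio between groups does not depend on these lengths.

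The TEAD factors, which carry YAP and TAZ to DNA, differed in direction. *Tead1* has a protein-coding row (ENSMUSG00000055320, chromosome 7, 119822832 to 120050319, plus strand) and a second row (ENSMUSG00000055593, 120046474 to 120050321, a processed transcript) that shares 3846 of its 3848 exonic bases with the 3′ end of the first. The counting rule for reads on shared bases was not given in the sources used here, so the split between the rows is uncertain, and the rows are given apart and summed. Summed, *Tead1* was at 92.0 and 75.0 CPM in P1 GFP+, 210 and 164 CPM in P1 GFP-, 76.5 and 118 CPM in P6 GFP+, and 147 and 172 CPM in P6 GFP-. Every GFP+ library was below every GFP- library. The first row held 0.449 to 0.558 times the counts of the 3′ row in 7 libraries and 0.132 times in P6 GFP+ replicate 1, the library low in long genes.

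*Tead2* (ENSMUSG00000030796, chromosome 7, 52471123 to 52489005, plus strand) was at 202 and 220 CPM in P1 GFP+ and 235 and 217 CPM in P1 GFP-, and the fractions overlapped. At P6 it was at 75.9 and 66.3 CPM in GFP+ and 95.5 and 110 CPM in GFP- cells, below both P1 groups. *Tead3* (ENSMUSG00000002249, chromosome 17, 28468616 to 28487750, minus strand) was at 97.4 and 110 CPM in P1 GFP+, 73.4 and 73.2 CPM in P1 GFP-, 76.3 and 72.0 CPM in P6 GFP+, and 36.2 and 42.4 CPM in P6 GFP-. It was the member that ran higher in GFP+ than in GFP- cells at both ages, and its P1 GFP- and P6 GFP+ levels overlapped.

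The make-up of the TEAD family was read per kilobase within each library. In P1 libraries of both fractions *Tead2* made up 57.4% to 58.7% of the summed RPKM of *Tead1*, *Tead2*, *Tead3* and *Tead4*. At P6 its share was 39.2% and 33.2% in the GFP+ libraries and 47.6% and 47.4% in the GFP- libraries. *Tead3* held 29.4% and 31.1% in P1 GFP+ and 41.8% and 38.3% in P6 GFP+ libraries, against 19.1% to 21.0% in the 4 GFP- libraries. *Tead1* held 10.9% and 8.28% in P1 GFP+ and 16.4% and 24.6% in P6 GFP+ libraries, against 21.4% and 18.4% in P1 GFP- and 30.5% and 30.6% in P6 GFP- libraries. The summed RPKM of the family was 75.2 to 87.4 at P1 and 41.4 to 50.0 at P6. For these values the counts of both *Tead1* rows were divided by the 11235 bases of the first row. In P1 GFP- cells this gave a mean of 16.7 RPKM, whereas the 3′ row alone, over its own 3848 bases, was at 32.2 RPKM. All the shares and sums depend on that choice of length. The P6 GFP+ *Tead1* shares also rest on replicate 1, the library low in long genes.

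**Figure D2:**
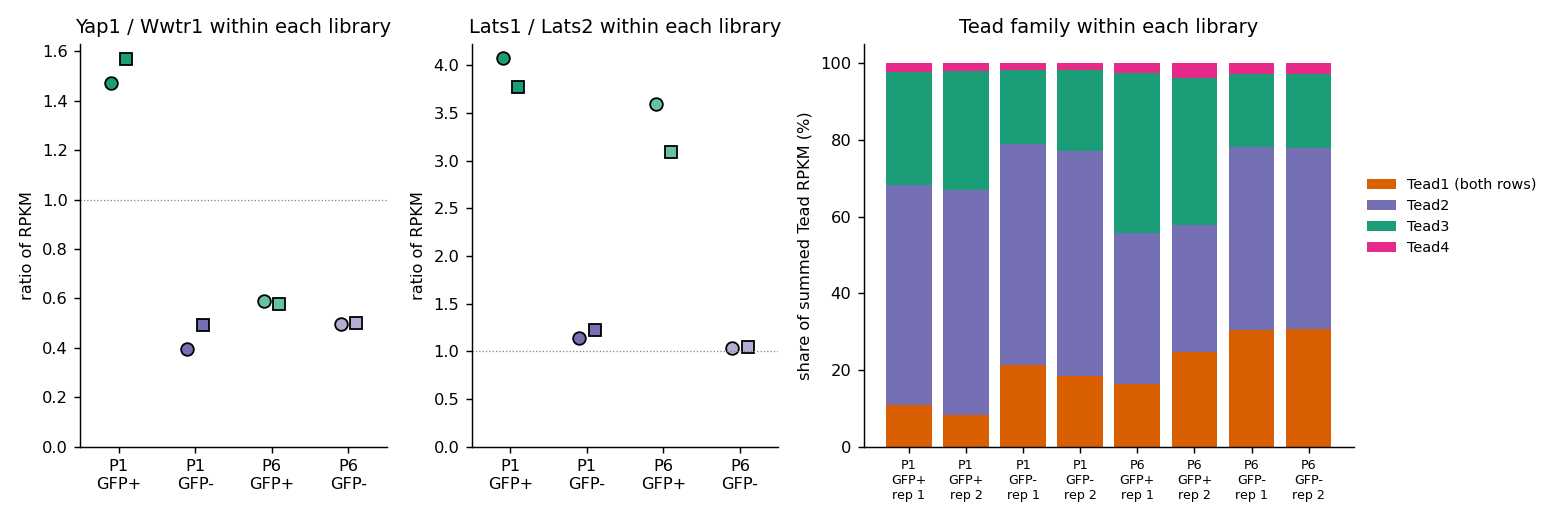
The left and middle panels plot the ratio of RPKM of Yap1 to Wwtr1 and of Lats1 to Lats2 in each library by group (circle for replicate 1, square for replicate 2, dotted line at a ratio of 1), and the right panel stacks the shares of Tead1, Tead2, Tead3 and Tead4 in their summed RPKM (%). Yap1 exceeds Wwtr1 per kilobase only in the P1 GFP+ libraries (1.47 and 1.57), and the Tead2 share is lower at P6 than at P1 in both fractions. Both Tead1 rows are scaled by the length of the first row, and the shares depend on it.

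*Lats2* (ENSMUSG00000021959, chromosome 14, 58260914 to 58377225, minus strand), one of the 2 kinases that phosphorylate YAP and TAZ, was at 31.6 and 30.8 CPM in P1 GFP+, 88.0 and 74.6 CPM in P1 GFP-, 19.0 and 38.4 CPM in P6 GFP+, and 99.5 and 97.1 CPM in P6 GFP-. GFP+ libraries were lower than GFP- libraries at both ages, and the GFP+ groups of the 2 ages overlapped. It shares 332 of its 7303 exonic bases with *Xpo4* on the same strand. Its paralog *Lats1* was 4.07 and 3.77 times as abundant per kilobase in P1 GFP+, and 3.60 and 3.09 times in P6 GFP+ libraries. In the 4 GFP- libraries the kinases were near parity, with ratios from 1.04 to 1.22.

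Of the target genes, *Ctgf* and *Cyr61* encode secreted matricellular proteins, *Amotl2* encodes a scaffold that binds YAP, and *Ankrd1* encodes a nuclear ankyrin repeat protein best known from muscle. *Cyr61* (ENSMUSG00000028195, chromosome 3, 145309935 to 145312949, minus strand) was the most abundant member per kilobase in every library, and its level was 171 and 108 CPM in P1 GFP+, 400 and 305 CPM in P1 GFP-, 124 and 152 CPM in P6 GFP+, and 508 and 485 CPM in P6 GFP-. *Amotl2* (ENSMUSG00000032531, chromosome 9, 102619002 to 102635748, plus strand) had the same order of fractions, at 48.5 and 42.0 CPM in P1 GFP+, 226 and 146 CPM in P1 GFP-, 54.8 and 80.6 CPM in P6 GFP+, and 257 and 276 CPM in P6 GFP-. For both genes every GFP- library was above every GFP+ library.

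*Ctgf* (ENSMUSG00000019997, chromosome 10, 24315248 to 24318489, plus strand) did not follow them at P1. It was at 42.6 and 28.7 CPM in P1 GFP+ and 31.3 and 24.3 CPM in P1 GFP-, where the fractions overlapped, and at 25.0 and 24.6 CPM in P6 GFP+ and 57.9 and 48.1 CPM in P6 GFP-. Only the P6 GFP- libraries stood apart from the rest. *Ctgf* shares 570 of its 2490 exonic bases with *Gm15270* on the opposite strand, and the kit did not mark strand, so reads of the pair cannot be told apart there. Per kilobase *Cyr61* was 4.92 and 4.61 times as abundant as *Ctgf* in P1 GFP+, 15.7 and 15.4 times in P1 GFP-, 6.08 and 7.60 times in P6 GFP+, and 10.8 and 12.4 times in P6 GFP-.

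*Ankrd1* (ENSMUSG00000024803, chromosome 19, 36186455 to 36194334, minus strand), a standard YAP readout in other tissues, was at background. It had 2 and 0 counts in P1 GFP+, 0 and 1 in P1 GFP-, 1 and 0 in P6 GFP+, and 0 and 1 in P6 GFP- libraries, too few to be tested. A count of 0 allows up to 3 counts, or between 0.0486 and 0.121 CPM in the 4 libraries that had 0, and such limits cover counting error only.

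**Figure D3:**
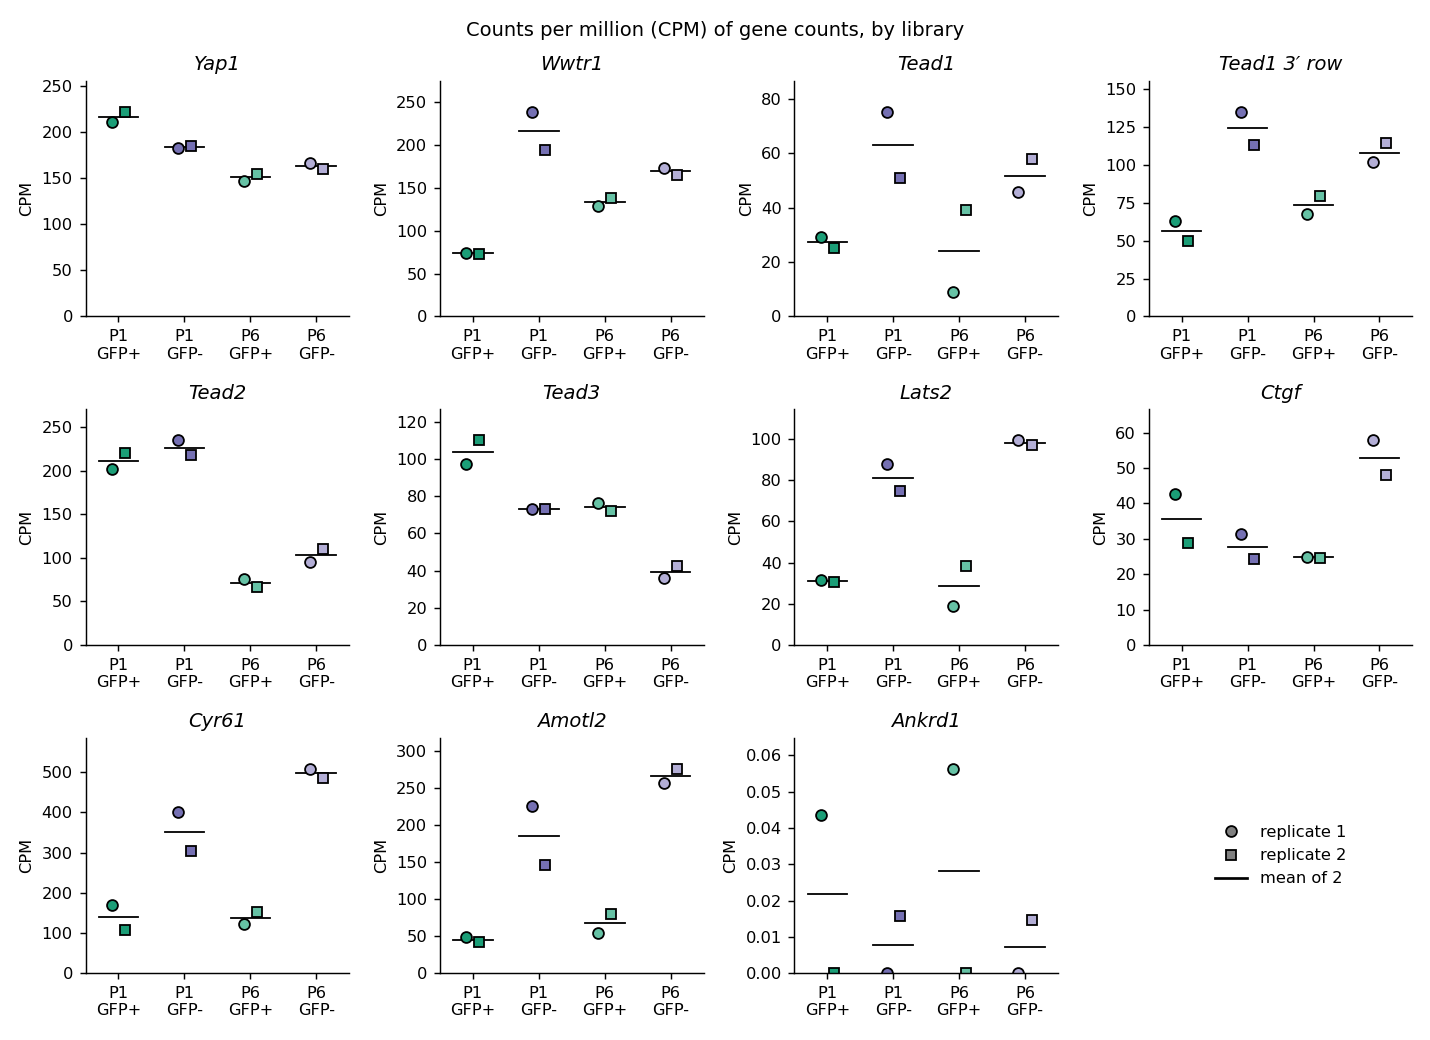
Each panel plots 1 gene row in CPM by group, with a circle for replicate 1, a square for replicate 2 and a bar for their mean, and the axes start at 0 and differ between panels. Cyr61, Amotl2, Lats2 and both rows of Tead1 are lower in GFP+ than in GFP- cells at both ages, Tead3 is higher, and Ankrd1 never exceeds 2 counts.

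Promoter sequence is shown for the target genes that moved together, *Cyr61* and *Amotl2*, and for *Ankrd1*, whose RNA was at background, to set the letters beside the levels above. RefSeq promoters of 300 bases (GRCm38.p6, from 250 before to 50 after the start site) were found for 8 of the 10 symbols, with no entry for *Tead1* or *Ctgf*, and only the bases before the start are printed for these 3 genes. Capitals mark the TEAD core motif, searched as GGAATG on both strands, so that CATTCC is the same motif on the other strand. The coordinates are those of GRCm38.p6 and do not match the NCBIM37 positions above. *Cyr61* is at chr3:145649986-145650235 (minus strand), *Amotl2* at chr9:102717554-102717803 (plus strand) and *Ankrd1* at chr19:36119845-36120094 (minus strand).
Cyr61: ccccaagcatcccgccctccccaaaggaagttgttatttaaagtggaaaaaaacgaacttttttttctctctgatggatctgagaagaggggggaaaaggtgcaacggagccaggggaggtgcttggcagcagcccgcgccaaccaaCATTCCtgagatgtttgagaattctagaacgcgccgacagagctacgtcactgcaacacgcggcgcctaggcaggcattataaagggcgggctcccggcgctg
Amotl2: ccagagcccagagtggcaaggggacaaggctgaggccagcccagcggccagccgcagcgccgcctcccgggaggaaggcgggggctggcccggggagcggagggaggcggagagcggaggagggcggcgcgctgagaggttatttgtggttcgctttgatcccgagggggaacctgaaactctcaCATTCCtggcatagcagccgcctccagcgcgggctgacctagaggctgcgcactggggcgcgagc
Ankrd1: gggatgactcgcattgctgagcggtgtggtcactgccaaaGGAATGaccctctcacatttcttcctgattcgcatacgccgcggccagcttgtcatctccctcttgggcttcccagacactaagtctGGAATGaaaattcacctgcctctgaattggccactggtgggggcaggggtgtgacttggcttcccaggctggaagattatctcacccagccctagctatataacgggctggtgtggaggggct

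*Cyr61* had 1 match, whose first base was at position -103 from the start site, and *Amotl2* had 1 at position -65. *Ankrd1* had 2 matches, at positions -210 and -123, although its RNA was at background in all 8 libraries. Of the other symbols, *Yap1*, *Wwtr1*, *Tead3* and *Lats2* had a match in at least 1 of their windows and *Tead2* had none. The *Lats2* match starts at position 5 after the start site of its first window, in this stretch of 30 bases (chr14:57746102-57746131, minus strand).
Lats2: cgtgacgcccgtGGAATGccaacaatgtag

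The motif was in 14.7% of the 32851 promoters of this length, and 1.36% held 2 or more matches. A match is a description of letters and not a binding site.

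GFP+ and GFP- cells of the same age were then compared, which asks how the brightest labelled cells differ from the unlabelled cells of the dissected tissue. At P1, 7 of the 10 member rows tested were called with edgeR's quasi-likelihood test (Benjamini-Hochberg adjusted p below 0.01 over 18682 genes), where 37.3% of all genes tested were called. In GFP+ cells 1 row was higher and 6 were lower, and of all genes 16.6% were higher and 20.7% lower. The 2 *Tead1* rows share bases and are counted apart here. With them summed 6 were called, 1 higher and 5 lower, where 3105 of all genes were higher and 3866 lower. The median log2 fold change of the tested rows was -1.07, which lies between the 2 *Tead1* rows, against 0.0075 for all genes. *Amotl2* was 3.81-fold lower in GFP+ cells (log2 fold change -1.93 ± 0.23, SE, adjusted p = 0.000862) and *Wwtr1* was 2.73-fold lower (-1.45 ± 0.13, adjusted p = 0.000267). *Lats2* was 2.42-fold lower (-1.28 ± 0.11, adjusted p = 0.000298) and *Cyr61* was 2.34-fold lower (-1.23 ± 0.26, adjusted p = 0.00895). The first *Tead1* row was lower by a log2 fold change of -1.10 ± 0.21 (adjusted p = 0.00567) and its 3′ row by -1.03 ± 0.16 (adjusted p = 0.00274).

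*Tead3* was the member that was higher in P1 GFP+ cells, by 1.52-fold (log2 fold change 0.60 ± 0.087, adjusted p = 0.00199). *Yap1* did not pass, at 0.34 ± 0.082 (adjusted p = 0.0152), nor did *Ctgf* at 0.48 ± 0.23 (adjusted p = 0.133) or *Tead2* at 0.0033 ± 0.093 (adjusted p = 0.979). No member passed the study's criterion of a 4-fold change, which 17.8% of genes passed. The libraries of the 2 fractions did not overlap for 8 of the 10 rows at P1, where this held for 79.3% of all genes, and for 10 of 10 at P6, where it held for 73.4%. Between the ages the libraries did not overlap for 7 of 10 rows in GFP+ cells (70.3% of all genes) and for 8 of 10 in GFP- cells (69.4%). In this bulk RNA, fewer cells of a type and less RNA per cell cannot be told apart, and the mesenchyme, endothelial and macrophage markers were lower in GFP+ cells too (7 of 8, 8 of 8 and 8 of 8 called). Their part in these differences was not tested. In the 4 fits that left out 1 library, *Wwtr1* ranged from -1.61 to -1.32, *Lats2* from -1.40 to -1.18 and *Amotl2* from -2.22 to -1.60. The calls of both *Tead1* rows, *Tead3* and *Cyr61* did not hold in every such fit.

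At P6, 3 of the 10 rows were called and all 3 were lower in GFP+ cells, where 12.9% of the 18294 genes tested were called, 7.72% higher and 5.19% lower. These were the 3 expressed target genes. *Amotl2* was 3.95-fold lower (log2 fold change -1.98 ± 0.23, adjusted p = 0.00342), *Cyr61* was 3.62-fold lower (-1.86 ± 0.19, adjusted p = 0.00270) and *Ctgf* was 2.15-fold lower (-1.10 ± 0.17, adjusted p = 0.00795). *Lats2* at -1.78 ± 0.32 (adjusted p = 0.0120) and *Tead3* at 0.91 ± 0.16 (adjusted p = 0.0105) had larger fold changes than at P1 but missed the threshold. *Wwtr1* was at -0.35 ± 0.16 (adjusted p = 0.144) and *Yap1* at -0.12 ± 0.16 (adjusted p = 0.599).

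The remaining rows were *Tead2* at -0.54 ± 0.17 (adjusted p = 0.0564), the first *Tead1* row at -1.11 ± 0.61 (adjusted p = 0.216) and its 3′ row at -0.56 ± 0.16 (adjusted p = 0.0425). The number of rows called at P6 moved with single libraries, as did the number called over all genes. In the 4 fits that left out 1 library, *Ctgf* ranged from -1.25 to -0.90, *Cyr61* from -1.98 to -1.68 and *Amotl2* from -2.26 to -1.70. None of these calls held in every such fit. Of the markers at P6, 3 of 8 for mesenchyme and 8 of 8 for macrophages were called lower in GFP+ cells and 0 of 8 for endothelium were called, and their part in the result was not tested.

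**Figure D4:**
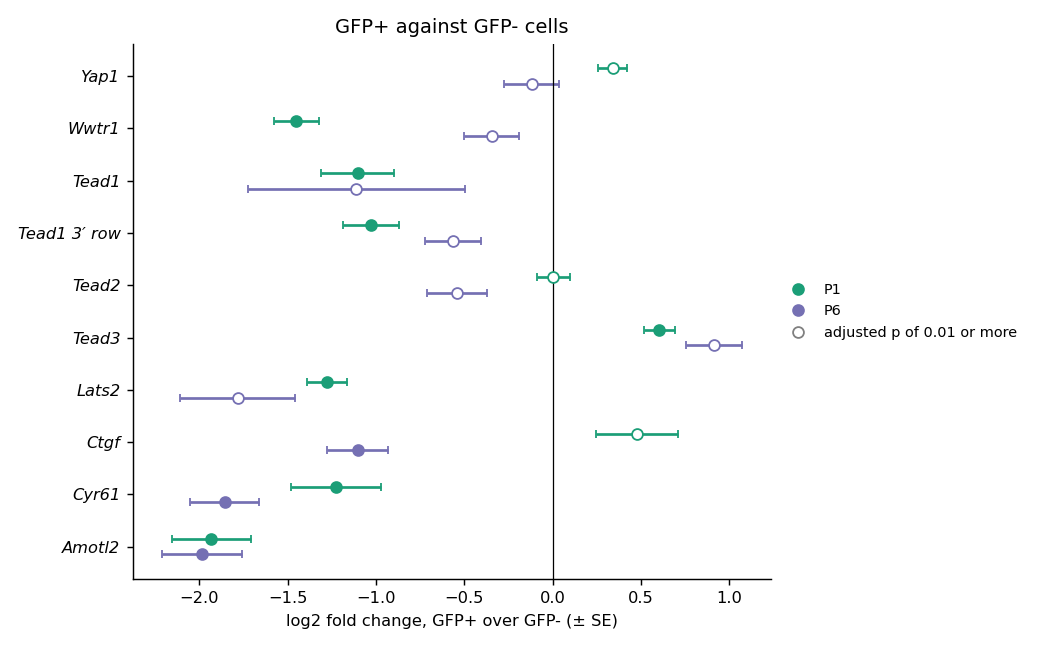
The log2 fold change of GFP+ over GFP- cells (point) with its standard error (bar) is plotted for the 10 member rows tested at P1 and P6, and open points did not reach an adjusted p below 0.01. Amotl2 and Cyr61 are lower at both ages, Wwtr1 moves from -1.45 to -0.35, and Ctgf lies on opposite sides of 0 at the 2 ages.

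Whether the ratio between fractions changed with age was tested with an interaction term in a fit of all 8 libraries. With edgeR 0 of the 10 rows were called at an adjusted p below 0.01, where 1.93% of 19233 genes were called (0.946% with a higher and 0.988% with a lower ratio at P6). An unadjusted p below 0.05 was reached by 4 rows, a threshold at which all genes were not counted. An adjusted p below 0.05 was reached by 2 rows and by 6.38% of all genes. Those 2 were *Wwtr1* (P6 log2 ratio minus P1 log2 ratio 1.09 ± 0.19, adjusted p = 0.0170) and *Ctgf* (-1.59 ± 0.32, adjusted p = 0.0269). DESeq2 called both, with adjusted p = 8.33e-05 for *Wwtr1* and 0.000632 for *Ctgf*. Over all genes DESeq2 called 1439 in the interaction, against 372 with edgeR. Over all alternatives the adjusted p ranged from 8.33e-05 to 0.106 for *Wwtr1* and from 1.7e-07 to 0.123 for *Ctgf*. Leaving out each of the 8 libraries in turn gave 0.97 to 1.32 for *Wwtr1*, -1.84 to -1.26 for *Ctgf* and -1.09 to -0.13 for *Lats2*. The number of rows called moved between these fits, as did the number called over all genes.

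Age was compared within each fraction, which asks what differed between P1 and P6. The dissection differed as well, with part of the lateral wall still attached at P6. In GFP- cells age and tissue content therefore cannot be told apart. In GFP+ cells 2 of the 10 rows were called, 1 higher and 1 lower at P6, where 4.81% of 17213 genes were called, 2.86% higher and 1.95% lower. *Wwtr1* rose 1.93-fold (log2 fold change 0.95 ± 0.11, adjusted p = 0.00762) and *Tead2* fell 2.78-fold (-1.48 ± 0.14, adjusted p = 0.00479). *Yap1* was at -0.43 ± 0.12 (adjusted p = 0.0562), *Amotl2* at 0.67 ± 0.20 (adjusted p = 0.0766), *Tead3* at -0.39 ± 0.12 (adjusted p = 0.0799), *Ctgf* at -0.44 ± 0.23 (adjusted p = 0.221) and *Cyr61* at 0.069 ± 0.25 (adjusted p = 0.864). *Lats2* was at -0.031 ± 0.32 (adjusted p = 0.955), the first *Tead1* row at -0.096 ± 0.62 (adjusted p = 0.927) and its 3′ row at 0.47 ± 0.17 (adjusted p = 0.107).

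This comparison rested on the uneven P6 GFP+ libraries. Without replicate 1 or replicate 2 of them the first *Tead1* row went in opposite directions (0.58 and -1.50). *Wwtr1* (0.98 and 0.93) and *Tead2* (-1.61 and -1.35) kept theirs. The number of rows called moved with single libraries, as did the number called over all genes. In the 4 fits that left out 1 library, *Wwtr1* ranged from 0.91 to 0.99 and *Tead2* from -1.61 to -1.35, and neither call held in every such fit. The *Wwtr1* call was also lost when library totals replaced TMM (log2 fold change 0.86, adjusted p = 0.0108) and with the replicate number as a block (0.95, adjusted p = 0.0115). *Wwtr1* was higher in GFP- than in GFP+ cells at P1, and RNA typical of GFP- cells moved with it: from P1 to P6 the GFP+ libraries went from 458 to 532 CPM to 1780 to 3576 CPM in summed mesenchyme markers, and from 1713 to 1818 CPM to 4452 to 14111 CPM in the 751 genes given above. Their part in the rise of *Wwtr1* was not tested.

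In GFP- cells 3 of the 10 rows were called, 1 higher and 2 lower at P6, where 7.38% of 18920 genes were called, 5.04% higher and 2.34% lower. *Ctgf* rose 2.18-fold (log2 fold change 1.13 ± 0.17, adjusted p = 0.00639). *Tead2* fell 1.93-fold (-0.95 ± 0.11, adjusted p = 0.00260) and *Tead3* fell 1.64-fold (-0.71 ± 0.11, adjusted p = 0.00700). The other target genes did not pass, *Cyr61* at 0.69 ± 0.16 (adjusted p = 0.0291) and *Amotl2* at 0.71 ± 0.20 (adjusted p = 0.0525), nor did *Lats2* at 0.46 ± 0.12 (adjusted p = 0.0395). *Yap1* was at 0.020 ± 0.10 (adjusted p = 0.915) and *Wwtr1* at -0.16 ± 0.14 (adjusted p = 0.437). The first *Tead1* row was at -0.10 ± 0.20 (adjusted p = 0.761) and its 3′ row at -0.011 ± 0.12 (adjusted p = 0.961).

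Scaling by library totals moved the median log2 fold change of all genes in GFP- cells from -0.022 to -0.21, and under it the *Ctgf* call was lost (0.93, adjusted p = 0.0145) while *Tead2* and *Tead3* stayed called. The number of rows called in GFP- cells moved with single libraries, as did the number called over all genes. In the 4 fits that left out 1 library, *Ctgf* ranged from 0.94 to 1.31, *Tead2* from -1.02 to -0.87 and *Tead3* from -0.79 to -0.62. None of these calls held in every such fit. *Ctgf* and *Cyr61* are also rapidly induced genes, and 18 genes of the response to tissue dissociation summed to 6428 and 7766 CPM in P1 GFP- and to 12644 and 11267 CPM in P6 GFP- libraries, with *Egr1* the most abundant at P1 and *Fos* at P6. Of these 18 genes 9 were called higher and 0 lower at P6 in GFP- cells, and 6 higher and 0 lower in GFP+ cells. Their part in the rise of *Ctgf* was not tested.

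**Figure D5:**
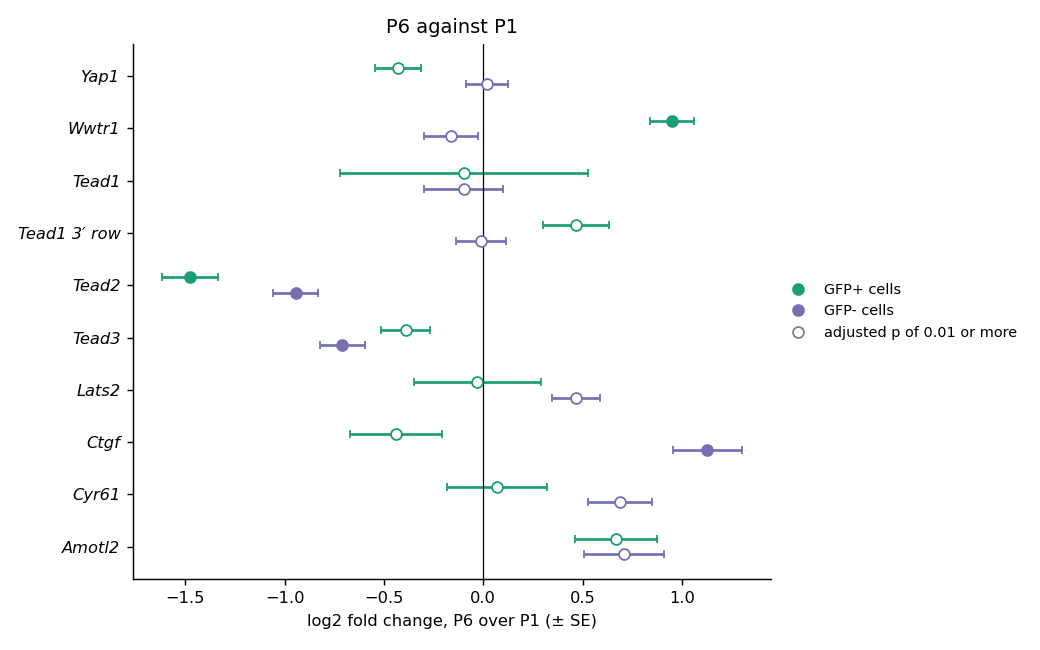
The log2 fold change of P6 over P1 (point) with its standard error (bar) is plotted for the 10 member rows tested in GFP+ and in GFP- cells, and open points did not reach an adjusted p below 0.01. Tead2 is lower at P6 in both fractions, Wwtr1 is higher in GFP+ cells and Ctgf is higher in GFP- cells.

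Other genes of the core pathway were examined as a list of 13 further genes with a count row, the kinases, adaptors, angiomotins and cofactors. With edgeR 2 were higher and 2 lower in GFP+ cells at P1 (all genes 16.6% and 20.7%), and 1 was higher and 0 lower at P6 (all genes 7.72% and 5.19%). DESeq2 called 5 at P1, adding *Lats1*, and 4 at P6, adding *Nf2*, *Amotl1* and *Ptpn14*. Over all genes DESeq2 called 7832 of the 18682 at P1 and 4891 of the 18294 at P6. *Wwc1* (KIBRA), a scaffold that promotes LATS activation, had the largest difference. It was at 358 and 395 CPM in P1 GFP+, 40.0 and 61.4 CPM in P1 GFP-, 267 and 250 CPM in P6 GFP+, and 37.8 and 31.3 CPM in P6 GFP- libraries. That was 7.97-fold higher in GFP+ cells at P1 (log2 fold change 2.99 ± 0.21, adjusted p = 0.000113) and 7.43-fold higher at P6 (2.89 ± 0.19, adjusted p = 0.000938), past the 4-fold criterion at both ages, as were 17.8% of all genes at P1 and 7.98% at P6.

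The kinase *Stk4* (MST1) was 1.75-fold higher in P1 GFP+ cells (log2 fold change 0.80 ± 0.091, adjusted p = 0.000738). The angiomotin *Amotl1* (-0.63 ± 0.10, adjusted p = 0.00305) and the YAP-binding phosphatase *Ptpn14* (-1.12 ± 0.099, adjusted p = 0.000280) were lower. At P6 these 3 did not pass with edgeR, at 0.37 ± 0.15, -1.55 ± 0.32 and -1.91 ± 0.54. *Amotl1* and *Ptpn14* have exons of 9927 and 11573 bases and were at 75.2 and 145 CPM and at 11.2 and 39.4 CPM in the 2 P6 GFP+ libraries.

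The other 9 did not pass with edgeR in either comparison. At P1 the kinase *Stk3* was at 0.27 ± 0.11, *Lats1* at 0.46 ± 0.11, and the adaptors *Sav1* at -0.41 ± 0.11, *Mob1a* at -0.055 ± 0.092 and *Mob1b* at 0.36 ± 0.12. The P1 values were 0.30 ± 0.089 for *Nf2* (merlin), 0.15 ± 0.11 for *Amot*, 0.23 ± 0.18 for *Tead4* and -0.044 ± 0.16 for *Vgll4*. At P6 *Stk3* was at -0.12 ± 0.17, *Lats1* at -0.14 ± 0.27, *Sav1* at -0.48 ± 0.14, *Mob1a* at -0.41 ± 0.15, *Mob1b* at 0.51 ± 0.15, *Nf2* at 0.61 ± 0.16, *Amot* at 0.63 ± 0.17, *Tead4* at 0.071 ± 0.31 and *Vgll4* at 0.024 ± 0.17. Between the ages 0 of the 13 were called by edgeR in either fraction, with 4 at an unadjusted p below 0.05 in each. All genes were not counted at that unadjusted threshold. Of all genes edgeR called 4.81% in GFP+ and 7.38% in GFP- cells. DESeq2 called 2 in each, *Mob1b* and *Vgll4*, and over all genes 3037 of 17213 in GFP+ and 3050 of 18920 in GFP- cells. In the interaction 0 were called by edgeR (3 at an unadjusted p below 0.05) and 0 by DESeq2. Of 19233 genes edgeR called 372 there and DESeq2 1439.

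A list of 56 further regulators, here called the upstream list, held polarity and junction proteins, atypical cadherins and kinases acting on LATS. Not all of it is upstream. It also held genes acting on YAP and TAZ after LATS (such as *Ywhab*, *Csnk1d* and *Btrc*), phosphatase complex genes (such as *Strn* and *Ppp2r1a*) and the TEAD cofactors *Vgll1* and *Vgll2*. At P1 54 were tested, and 11 were higher and 12 lower in GFP+ cells, where 16.6% and 20.7% of all genes were. The median log2 fold change was -0.077 against 0.0075 for all genes. The largest rises were *Rassf6*, a binding partner of the MST kinases (4.21 ± 0.55), *Cdh1*, which encodes E-cadherin (3.31 ± 0.12), and *Crb3*, an apical polarity protein (2.89 ± 0.30). The largest falls were the atypical cadherins *Fat4* (-3.46 ± 0.10) and *Fat1* (-1.84 ± 0.13) and the FERM protein *Frmd6* (-1.80 ± 0.11). Adjusted p for these 6 genes lay between 1.06e-05 and 0.00138. At P6 6 were higher and 3 lower of 54 (all genes 7.72% and 5.19%), led by *Rassf6* (6.28 ± 0.27), *Crb3* (2.89 ± 0.30) and *Crb2* (2.35 ± 0.19), and by *Fjx1* (-2.42 ± 0.29), *Frmd6* (-2.07 ± 0.31) and *Wtip* (-1.08 ± 0.18), with adjusted p between 0.000645 and 0.00887.

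Between the ages, 2 of 54 genes of the upstream list rose and 1 fell in GFP+ cells, where 2.86% of all genes were higher and 1.95% lower. These were *Crb2* (log2 fold change 4.39 ± 0.17, adjusted p = 0.00171), *Rassf6* (2.07 ± 0.19, adjusted p = 0.00407) and *Cdh1* (-1.79 ± 0.16, adjusted p = 0.00402). In GFP- cells 2 of 54 rose and 0 fell (all genes 5.04% and 2.34%), *Crb2* (2.18 ± 0.20, adjusted p = 0.00113) and the ubiquitin ligase *Siah2* (1.20 ± 0.13, adjusted p = 0.00188).

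A list of 44 genes described as YAP and TEAD targets split between the fractions. It includes *Ptpn14* of the core list and *Fjx1* of the upstream list, so these are counted in both. At P1 10 of 41 tested were higher and 21 lower in GFP+ cells, where 16.6% and 20.7% of all genes were, with a median log2 fold change of -0.96. The largest rises were *Igfbp3*, an IGF binding protein (4.46 ± 0.14), the Notch ligand *Jag1* (4.31 ± 0.30), which is also on the supporting cell list, and *Dock5* (3.79 ± 0.10). The largest falls were *Nov*, a relative of *Ctgf* and *Cyr61* in the CCN family (-6.56 ± 0.13), the transcription factor *Foxf2* (-5.91 ± 0.18) and the receptor *Nrp1* (-4.51 ± 0.15), with adjusted p for the 6 between 9.99e-06 and 0.000108. At P6 5 of 42 were higher and 5 lower (all genes 7.72% and 5.19%), with a median of -0.96, led by *Igfbp3* (4.19 ± 0.31), *Jag1* (4.11 ± 0.25) and *Tnfrsf12a* (3.33 ± 0.30), and by *Itgb2* (-2.43 ± 0.40), *Fjx1* (-2.42 ± 0.29) and the receptor kinase *Axl* (-1.76 ± 0.24), with adjusted p between 0.000800 and 0.00920. The mesenchyme marker sums given above moved in the direction of the falling targets, and their part was not tested.

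With age, 3 of 40 tested targets rose and 2 fell in GFP+ cells (all genes 2.86% and 1.95%). These were *Col8a1* (log2 fold change 3.83 ± 0.42), the CCN family gene *Wisp1* (3.29 ± 0.21), *Nt5e* (2.59 ± 0.15), the matricellular gene *Thbs1* (-2.38 ± 0.22) and *Tgfb2* (-1.32 ± 0.16), with adjusted p between 0.00240 and 0.00796. In GFP- cells, where 5.04% of all genes were higher and 2.34% lower, 9 of 42 rose, led by *Wisp1* (2.53 ± 0.13), *Col8a1* (2.41 ± 0.14) and *Dock5* (1.56 ± 0.11), and 3 fell. The 3 that fell were *Birc5* (-1.65 ± 0.16), *Cdc20* (-1.22 ± 0.16) and *Ccnd1* (-0.91 ± 0.13), genes of cell division, with adjusted p for the 6 between 0.000132 and 0.00494. Summed mesenchyme markers were higher at P6 than at P1 in both fractions, and their part in the rise of *Wisp1* and *Col8a1* was not tested.

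As a description of pattern over the 8 libraries, the genes most like *Yap1* among 10910 genes with a mean of at least 10 CPM were *Cdkal1*, *Txnrd1*, *Slitrk2*, *Rerg* and *Dctd*, with Pearson correlations of log2(CPM + 1) from 0.983 to 0.988. Those most like *Ctgf* were *Scamp2*, *Glul*, *Sulf2*, *Tceal1* and *Lhfp*, with correlations from 0.841 to 0.897. The 8 points are 4 pairs of replicates, and libraries of a pair share their sorted fraction and age but differ in depth.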

How the data were processed

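RNA was sequenced from GFP+ and GFP- cells sorted from P1 and P6 cochleas, with 2 libraries per group. The deposited files hold raw counts for each Ensembl gene, made by the authors by aligning paired reads to mm9 (NCBIM37) and counting with HTSeq. The submitters' processing notes list TopHat 1.4.0 and DESeq 1.9.2. The counting mode is not given in the sources used here. Libraries held 17769024 to 67695039 gene counts.

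Each comparison was fitted on all genes of its 4 libraries (the interaction on all 8) with edgeR 4.0.16 in R 4.3.3, using filterByExpr (minimum count 10, minimum total 15), TMM and its quasi-likelihood test, with p adjusted after Benjamini and Hochberg and rows called at an adjusted p below 0.01. CPM used totals over genes and RPKM also the exon length in NCBIM37. The standard error is the log2 fold change divided by the square root of F. Named beyond the members were all core genes and, per list, comparison and direction, the 3 called genes with the largest change, and for likeness the 5 genes with the highest correlation. Alternatives were DESeq2 1.42.0 size factors or its test, library totals, no filter, all 8 libraries, a replicate block, leaving out each library, an adjusted p below 0.05, and, chosen after seeing the data, summed *Tead1* rows and a crossed block. Members and lists were chosen with earlier results of these data known. Nothing in the labels says whether replicates came from separate litters, so p-values measure only the spread between these libraries.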

Additional observations from a re-analysis of the deposited data

Results flagged for a closer look

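In 4 of the named genes the ratio of GFP+ to GFP- cells differed between the ages by the interaction test (edgeR, adjusted p below 0.01, 8 libraries), and these are given as values. All 4 had been named for large age or fraction changes in these same libraries, so the calls are not independent of that choice. Of all genes tested 1.93% were called. *Crb2* was at 3.97 and 4.22 CPM in P1 GFP+ and 4.33 and 3.61 CPM in P1 GFP-, and at 86.6 and 74.7 CPM in P6 GFP+ and 17.0 and 14.4 CPM in P6 GFP- libraries, with a P6 minus P1 difference of log2 ratios of 2.19 (adjusted p = 0.00325). *Nt5e* was at 16.2 and 17.2 CPM and 22.7 and 18.0 CPM in the P1 fractions and at 101 and 86.4 CPM and 29.4 and 26.1 CPM in the P6 fractions (difference 1.92, adjusted p = 0.00414). *Cdh1* went the other way, from 1779 and 1803 CPM in P1 GFP+ and 187 and 202 CPM in P1 GFP- to 466 and 506 CPM in P6 GFP+ and 241 and 187 CPM in P6 GFP- libraries (difference -2.15, adjusted p = 0.00332). *Thbs1* had the largest difference of the 4, from 1303 and 1209 CPM and 108 and 134 CPM at P1 to 185 and 269 CPM and 342 and 275 CPM at P6 (difference -3.95, adjusted p = 0.000928). In CPM *Thbs1* was thus well above GFP- cells at P1, while at P6 the nearest libraries were at 269 CPM in GFP+ and 275 CPM in GFP- cells. Leaving out each of the 8 libraries in turn, *Thbs1* kept its call in 8 of 8 fits, *Crb2* in 4, *Nt5e* in 3 and *Cdh1* in 2, all 4 with the same sign throughout. The 3 calls were lost without either P1 GFP+ or either P6 GFP- replicate, that of *Nt5e* also without P1 GFP- replicate 1, and that of *Cdh1* also without either P1 GFP- replicate. With the replicate number as a block *Cdh1* was no longer called (-2.14, adjusted p = 0.0109).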

How the results depend on the processing

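Counts of member rows called were 7 at P1, 3 at P6, 2 in GFP+ cells with age, 3 in GFP- cells with age and 0 in the interaction. Leaving out each library in turn gave 3 to 9, 0 to 7, 0 to 7, 0 to 6 and 0 to 2. At an adjusted p below 0.05 the counts were 6 at P6, 5 in GFP- cells and 2 in the interaction. Without the filter they were 5, 6 and 2, and with the DESeq2 test 5, 5 and 2. DESeq2 size factors gave 5 at P6, and all 8 libraries in the fit gave 5 at P6 and 1 in GFP- cells. Over all genes these fits called 2841, 5157 and 769 in that order. Library totals gave 1 in GFP+ cells, where 753 of all genes were called. Over all genes edgeR and the DESeq2 test called 2363 and 4891 genes at P6, 828 and 3037 in GFP+ cells, 1397 and 3050 in GFP- cells, and 372 and 1439 in the interaction. Without the filter edgeR called 5309, 4090, 3993 and 2400. Library totals moved the median of all genes in the interaction from 0.031 to 0.16. With TMM library sizes, 13 mean levels of a member row in a group moved by more than their standard deviation, and 31 did not.

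For pairing, the difference of replicate 1 minus replicate 2 in log2(CPM + 1) was taken for each gene in each group. These differences were correlated between the 2 groups of each comparison over 15477 genes. The correlations were 0.0397 (P1), 0.0591 (P6), -0.170 (GFP+ cells) and -0.327 (GFP- cells). The labels give a replicate number and do not say that libraries of the same number were paired. With the number as a replicate block, 7, 4, 1, 2 and 0 member rows were called. Over all genes 6363, 2837, 1079, 1040 and 151 were called. Crossed pairing, added after seeing the data, gave 2 in GFP+ and 5 in GFP- cells. Over all genes it called 1254 and 3063.

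The following log2 fold changes changed sign, and none of them was called under that alternative. At P1 these were *Tead2* (-0.0082 with DESeq2 size factors, -0.10 with library totals, -0.0091 without the filter, -0.012 with all 8 libraries, -0.0083 with the DESeq2 test). At P6 it was *Vgll4* (-0.023 without the filter, -0.0065 with all 8 libraries). With age, library totals gave -0.016 for *Cyr61* in GFP+ and -0.17 for *Yap1* in GFP- cells. The 3′ row of *Tead1* (ENSMUSG00000055593) was at 0.020 without the filter and 0.019 with all 8 libraries in GFP- cells. In the interaction *Tead1* was at 0.0050 with DESeq2 size factors and 0.12 with library totals, and *Amotl2* at 0.064 with library totals. With its rows summed, *Tead1* was at 0.31 in GFP+ cells with age and 0.32 in the interaction.

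Leaving out single libraries gave ranges that included both signs for *Tead2* (-0.064 to 0.046), *Mob1a* (-0.12 to 0.0088) and *Vgll4* (-0.27 to 0.17) at P1, and for *Stk3* (-0.22 to 0.034), *Lats1* (-0.56 to 0.24), *Tead4* (-0.26 to 0.38) and *Vgll4* (-0.11 to 0.21) at P6. In GFP+ cells with age they were -1.50 to 0.58 for *Tead1*, both ends being called, -0.59 to 0.36 for *Lats2* and -0.25 to 0.47 for *Cyr61*. In GFP- cells they were -0.031 to 0.085 for *Yap1*, -0.37 to 0.20 for *Tead1* and -0.15 to 0.11 for its 3′ row. In the interaction they were -1.43 to 0.65 for *Tead1* and -0.38 to 0.30 for *Amotl2*. *Ankrd1* had at most 2 counts in any library and was not tested.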
